A study of Homo sapiens with 12 samples.

Results

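The metallothionein genes were followed in hypoxic U87 cells, the U-87 MG line of human glioblastoma, with and without the hypoxia-inducible factors. Metallothioneins are small cysteine-rich proteins that bind zinc, copper and cadmium ions and buffer the free metal of the cell. Their genes are switched on by metal-responsive transcription factor 1 (MTF1), which binds metal response elements (MREs) in their promoters, and they are also known to respond to glucocorticoids, oxidants and low oxygen. MT1 isoforms and MT2A are made in most tissues including astrocytes, whereas MT3 is known mainly from the brain. The members were the rows of the deposited table that carry the symbols MT1A, MT1E, MT1F, MT1G, MT1H, MT1M, MT1X, MT2A and MT3, which are 9 of 20263 genes.

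The mRNA of 4 groups was sequenced, with 3 libraries in each group. Cells of the vector group carried an empty vector, those of HIF1α-ko and HIF2α-ko lacked a single factor by knockout, and both were knocked out in HIF1α/2α-ko. Cells of all 4 groups were kept at 1% O2, for 72 h according to the record of the sequencing. The study's methods give a shorter time for mRNA detection in general. No normoxic library was analysed here, so vector is the hypoxic reference and not an oxygenated one. The design asks which hypoxic mRNA levels change when HIF1α, HIF2α or both are lost. The sources used here do not say whether a knockout line was a clone or a pool, or whether replicates came from separate cultures, so the p-values measure only the spread between these libraries. The values are TPM, a unit of transcript abundance per gene length that has the same total in every library. The table keeps no depth, so the depth behind each value is unknown and no counting interval is given.

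Both targeted mRNAs were reduced but not absent. HIF1A was 124 ± 23.5 TPM in vector, 48.5 ± 9.35 in HIF1α-ko cells, 86.8 ± 18.1 in HIF2α-ko cells and 75.5 ± 11.9 in HIF1α/2α-ko cells (mean ± SD, n = 3). EPAS1, the HIF2α gene, was 322 ± 31.5 TPM in vector, 265 ± 20.2 in HIF1α-ko cells, 107 ± 17.0 in HIF2α-ko cells and 117 ± 14.4 in HIF1α/2α-ko. In HIF1α/2α-ko HIF1A was thus higher than in HIF1α-ko, by 0.64 on the log2 scale (limma, adjusted p = 0.0287). Its libraries there, from 67.8 to 89.2 TPM, overlapped with those of HIF2α-ko, from 76.1 to 108 TPM, which carry no HIF1α knockout (log2 difference -0.19, interval -0.62 to 0.23). Mesenchymal markers known from this line were high, with VIM between 5635 and 14690 TPM, while the astrocyte marker GFAP did not exceed 0.639 TPM and the neural factor SOX2 did not exceed 0.0622 TPM in any library. The leukocyte genes PTPRC and CD3E stayed at or below 0.111 TPM, whereas CD68 lay between 587 and 1633 TPM. Vector replicate 1 stood apart from its group, with a correlation across genes of 0.966 to 0.968 with the other two against 0.989 between those, and with 3.17% of its TPM from mitochondrially encoded genes against 0.517% and 0.836%. Replicate 1 of HIF1α/2α-ko stood apart in the same way, to a smaller degree (correlations of 0.976 and 0.977 against 0.992, mitochondrial share 2.23% against 1.08% and 1.23%), and in HIF1α-ko and HIF2α-ko replicate 1 also had the lower correlations, from 0.982 to 0.985, and the higher mitochondrial share, of 1.72% and 0.884%. In bulk RNA, fewer cells that express a gene and less RNA per cell cannot be told apart.

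The 9 genes lie in 1 cluster of 95.1 kb on chromosome 16 (56589074 to 56684196, GRCh38, GENCODE 29 annotation). MT3 comes first, followed by MT2A, MT1E, MT1M, MT1A, MT1F, MT1G, MT1H and MT1X, with MT1G alone on the minus strand. The proteins are encoded by 186 bases in MT2A and every MT1 gene and by 207 bases in MT3. Pairs of MT1 genes were 88.7% to 94.6% identical over the coding bases (21 pairs, median 91.9%), MT2A was 89.8% to 95.2% identical to the MT1 genes, and MT3 was 73.4% to 76.3% identical to the other members. The likeness bears on how reads can be assigned. Of all 50-base windows of the annotated transcripts, the share also found in another gene was 0% for MT3, 3.02% for MT2A, 1.22% for MT1F, 7.1% for MT1E, 9.87% for MT1M, 16.5% for MT1G and 18.3% for MT1X. At 100 bases 11.3% of the windows of MT1X were shared, all with an overlapping annotated gene, AC026461.1, so reads there cannot be told apart by sequence. At that length no window of MT2A, MT3, MT1E, MT1F, MT1M or MT1G was shared. How the authors' counting treated shared reads is not given in the sources used here, so values of the low members MT1M and MT1G are uncertain in this respect.

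Promoter sequences are shown for the 3 members that the RefSeq promoter table holds (GRCh38.p14, plus strand, 250 bases ending just before the annotated start), because MT2A and MT1X carry much of the metallothionein mRNA and fell together in HIF1α/2α-ko, whereas MT1H, with the most MRE matches of the 3, was listed at 0. They are chr16:56608334-56608583 for MT2A, chr16:56682220-56682469 for MT1X and chr16:56669564-56669813 for MT1H. GENCODE also annotates transcripts of MT2A and MT1X that start upstream of these RefSeq starts. Capitals mark matches to the MRE core, searched as TGCACNC or TGCGCNC on either strand.
MT2A: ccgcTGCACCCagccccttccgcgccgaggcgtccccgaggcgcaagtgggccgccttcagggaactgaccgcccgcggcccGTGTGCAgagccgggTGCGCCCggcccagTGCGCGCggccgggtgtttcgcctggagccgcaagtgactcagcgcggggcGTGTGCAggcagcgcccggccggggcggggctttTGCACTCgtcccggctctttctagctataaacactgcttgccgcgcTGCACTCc
MT1X: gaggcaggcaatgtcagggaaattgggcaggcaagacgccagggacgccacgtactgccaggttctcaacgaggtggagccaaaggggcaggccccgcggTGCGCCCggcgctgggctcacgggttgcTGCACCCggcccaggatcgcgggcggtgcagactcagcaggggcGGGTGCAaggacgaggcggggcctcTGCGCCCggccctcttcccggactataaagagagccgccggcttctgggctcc
MT1H: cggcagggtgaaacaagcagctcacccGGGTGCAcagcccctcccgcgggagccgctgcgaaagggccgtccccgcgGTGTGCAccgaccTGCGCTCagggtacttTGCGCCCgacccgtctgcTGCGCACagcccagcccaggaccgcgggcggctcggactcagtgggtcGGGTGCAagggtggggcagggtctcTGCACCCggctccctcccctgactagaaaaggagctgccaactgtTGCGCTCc
These windows held 7 MRE matches in MT2A, 4 in MT1X and 8 in MT1H. Among 35116 promoter windows of the same length, 24.8% held at least 1 match, 0.37% held at least as many as MT1X, 0.0313% at least as many as MT2A and 0.0171% at least as many as MT1H. The core of the hypoxia response element, searched as ACGTG or GCGTG on either strand, matched once in MT2A, where it overlapped an MRE match 88 to 82 bases before the start, once in MT1X, 202 to 198 bases before the start, and not in MT1H. At least 1 such match was present in 43.2% of all windows. A match describes letters and not binding.

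In these hypoxic cells the metallothionein mRNA was dominated by MT2A, and the total was lowest when both factors were knocked out. The 9 members summed to 0.977 ± 0.236% of all TPM in vector, 0.915 ± 0.108% in HIF1α-ko cells, 0.675 ± 0.0468% in HIF2α-ko cells and 0.450 ± 0.0215% in HIF1α/2α-ko cells (mean ± SD, n = 3). The mean sum in HIF1α/2α-ko was 0.461 times that of vector. MT2A made up 74.0% to 77.2% of the sum in every group. By mean TPM, MT2A ranked 11 among all genes in vector, 12 in HIF1α-ko cells, 20 in HIF2α-ko cells and 31 in HIF1α/2α-ko.

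MT2A, the most abundant isoform, had 9826, 6740 and 6018 TPM in the 3 vector libraries. It had 8047, 6225 and 6106 TPM in HIF1α-ko cells, 5657, 4775 and 4878 TPM in HIF2α-ko cells, and 3362, 3428 and 3624 TPM in cells of HIF1α/2α-ko. All HIF1α/2α-ko libraries lay below all libraries of the other 3 groups, and vector and HIF1α-ko overlapped. MT1E, the second most abundant isoform, had 1562, 1077 and 998 TPM in vector, 1742, 1709 and 1787 in HIF1α-ko cells, 991, 1018 and 1081 in HIF2α-ko cells, and 630, 696 and 713 in cells of HIF1α/2α-ko. Its HIF1α-ko libraries were the highest and its HIF1α/2α-ko libraries the lowest, without overlap with any other group. MT1X, a further general isoform, had 920, 938 and 786 TPM in vector, 458, 470 and 451 in HIF1α-ko cells, 474, 438 and 479 in HIF2α-ko cells, and 239, 298 and 332 in cells of HIF1α/2α-ko. The vector libraries were the highest, both single knockouts overlapped at an intermediate level, and HIF1α/2α-ko was the lowest.

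MT1F, another general isoform, had 123, 149 and 145 TPM in vector, 136, 140 and 148 in HIF1α-ko cells, 136, 130 and 135 in HIF2α-ko cells, and 60.9, 61.4 and 53.1 in HIF1α/2α-ko. Only HIF1α/2α-ko stood apart, below the other 3 groups. MT1M was low, with 3.08, 3.09 and 2.32 TPM in vector, 5.07, 4.58 and 6.25 in HIF1α-ko cells, 2.74, 3.41 and 3.37 in HIF2α-ko cells, and 1.44, 1.22 and 0.834 in HIF1α/2α-ko. As for MT1E, HIF1α-ko was highest and HIF1α/2α-ko lowest, while the means of vector and HIF2α-ko stood in the reverse order. MT3, the isoform known from the brain, had 1.64, 3.32 and 4.14 TPM in vector, 0.291, 0 and 0.457 in HIF1α-ko cells, 10.8, 12.9 and 12.5 in HIF2α-ko cells, and 0, 0.287 and 0.0717 in HIF1α/2α-ko. Its HIF2α-ko libraries were the highest, without overlap with any other group.

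MT1G was at the edge of detection, with 1.09, 0 and 0 TPM in vector, 0.288, 0 and 1.01 in HIF1α-ko cells, 0.703, 0.508 and 1.35 in HIF2α-ko cells, and 0, 0 and 0.364 in HIF1α/2α-ko. Its mean was also highest in HIF2α-ko, but only HIF2α-ko and HIF1α/2α-ko did not overlap for this gene. MT1A and MT1H were listed at 0 in all 12 libraries. Of the metallothionein genes outside the 9 members, MT1B, MT1HL1 and MT4 were also listed at 0 in every library. A 0 in a TPM table says only that the gene is listed at 0.

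**Figure D1:**
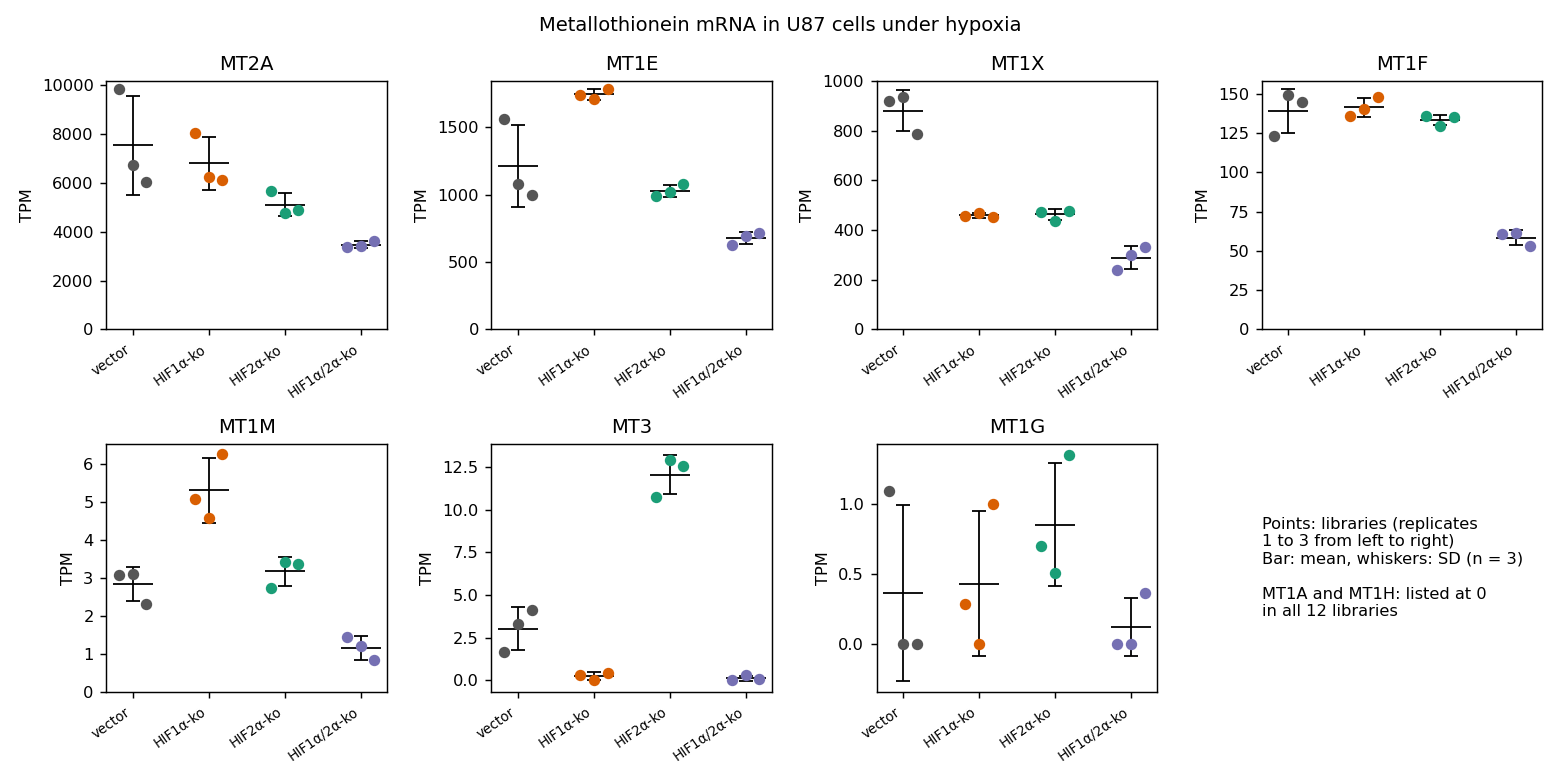
TPM of the 7 detected metallothioneins in each library (points, replicates 1 to 3 from left to right) with the group mean and SD (n = 3), on linear axes with a scale for each gene. MT2A, MT1E, MT1X, MT1F and MT1M are lowest in HIF1α/2α-ko, and MT3 is highest in HIF2α-ko and at or below 0.457 TPM in both groups with a HIF1α knockout.

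Levels were compared on the scale log2(TPM + 1) with limma across all 11731 genes that reached 1 TPM in at least 3 libraries, and p-values were adjusted by Benjamini-Hochberg over those genes. Of the 9 members 7 passed this filter, since MT1A and MT1H were listed at 0. MT1G passed through 3 libraries, which lie in 3 groups. Fold changes on this scale understate the change of low genes such as MT1M, MT3 and MT1G. The 3 comparisons with vector share the vector libraries and are not independent of each other.

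Loss of both factors lowered 6 of the 7 tested members. Of all genes tested in this comparison, 46.7% were called, 31.8% higher and 14.8% lower. The largest falls on the log2 scale were those of MT3 (-1.80, SE 0.24, adjusted p = 8.04e-05) and MT1X (-1.61, SE 0.13, adjusted p = 2.84e-06). MT1F changed by -1.24 (adjusted p = 8.08e-06), MT2A by -1.08 (adjusted p = 0.000261), MT1M by -0.83 (adjusted p = 0.0019) and MT1E by -0.81 (adjusted p = 0.000701). In mean TPM these are 3.04-fold less MT1X, 2.38-fold less MT1F, 2.17-fold less MT2A, 2.43-fold less MT1M and 1.78-fold less MT1E. MT1G had a log2 change of -0.21 with a 95% interval of -0.89 to 0.48 (adjusted p = 0.618). The median change of the 7 members was -1.08, against 0.21 over all tested genes. The rise of the median over all genes was 0.01 after median ratio scaling, and on that scale the changes of the 6 members were between -0.96 and -1.89. Without vector replicate 1, in which MT2A and MT1E were highest, MT2A changed by -0.88 and MT1E by -0.61, and both remained past the threshold (adjusted p = 0.000273 and 0.00023). Without HIF1α/2α-ko replicate 1 the same 6 members passed, with changes from -0.75 to -1.72.

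Markers of cell types were called in this comparison as well, where 46.7% of all genes were called, 31.8% higher and 14.8% lower. Of 6 tested glioma line markers 2 fell and 1 rose, a share near that of all genes. VIM changed by -0.96 (limma, adjusted p = 0.000412) and FN1 by -1.63 (adjusted p = 0.00464). OLIG2 rose by 2.31 (adjusted p = 0.000828), from 0.884 to 2.70 TPM in vector to 7.61 to 19.2 TPM. The 9 markers of this list summed to 13142 to 17123 TPM in vector and to 6804 to 10358 TPM in HIF1α/2α-ko. The 4 leukocyte markers summed to 1284 to 1634 TPM in vector and 587 to 818 TPM in HIF1α/2α-ko, nearly all of it CD68, a lysosomal membrane protein of macrophages, which fell by 1.12 (adjusted p = 0.0001). PTPRC, the pan-leukocyte marker, was at 0 in every HIF1α/2α-ko library and in 2 of 3 vector libraries. Of the neuron markers the single one tested, SNAP25, fell by 0.70 (adjusted p = 0.00854), and the list summed to 3.678 to 4.701 TPM in vector and 1.79 to 2.85 TPM in HIF1α/2α-ko. The 4 endothelial markers summed to at most 7.08 TPM and the 3 epithelial markers to at most 0.724 TPM in any library, with none called. The part of these genes in the fall of the metallothioneins was not tested.

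Loss of HIF1α alone moved the members in both directions. Of the 7 tested members 2 were higher and 2 lower, where 26.1% of all genes were called, 17.3% higher and 8.77% lower. MT1X fell by 0.93 on the log2 scale (SE 0.13, adjusted p = 0.000574), and MT3 fell by 1.65 (SE 0.24, adjusted p = 0.000769). MT1M rose by 0.72 (SE 0.17, adjusted p = 0.0108) and MT1E rose by 0.55 (SE 0.14, adjusted p = 0.0158). Both calls, though not the direction, were lost when single libraries were left out. The rise of MT1E was 0.48 without vector replicate 2 (adjusted p = 0.0634), 0.43 without vector replicate 3 (adjusted p = 0.0718) and 0.54 without HIF1α-ko replicate 3 (adjusted p = 0.0568). It did not pass after median ratio scaling either (0.35, adjusted p = 0.105), and its adjusted p ranged from 0.000141 to 0.105 over 21 alternatives. That of MT1M was 0.62 without vector replicate 3 (adjusted p = 0.0522) and 0.61 without HIF1α-ko replicate 3 (adjusted p = 0.0573), in a range of 0.00767 to 0.0573 over 20 alternatives. Without the one or the other of these libraries 2 members, both lower, were called, and the share of all genes called was 14.0% and 13.2%. The most abundant isoform, MT2A, had a log2 change of -0.13 with a 95% interval of -0.49 to 0.24 (adjusted p = 0.6). For MT1F the change was 0.03, with an interval of -0.22 to 0.27. The members' median was 0.03, against 0.18 over all genes.

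Loss of HIF2α alone changed 2 of the 7 members, 1 in each direction, where 11.0% of all genes were called, 5.07% higher and 5.89% lower. MT1X fell by 0.92 on the log2 scale (SE 0.13, adjusted p = 0.00211), a change close in size to its fall in HIF1α-ko. MT3 rose by 1.75 (SE 0.24, adjusted p = 0.00198), or 3.98-fold in mean TPM, opposite to its fall in HIF1α-ko. With a pseudocount of 0.1 the rise of MT3 did not pass (log2 change 2.05, adjusted p = 0.0555, the highest over 20 alternatives from 0.000666). MT2A had a log2 change of -0.53 (interval -0.90 to -0.17) whose adjusted p of 0.0627 missed the threshold, although all its HIF2α-ko libraries lay below all vector libraries. The changes of MT1E (-0.21), MT1F (-0.06), MT1M (0.13) and MT1G (0.51) did not pass. The members' median was -0.06, against -0.04 over all genes.

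**Figure D2:**
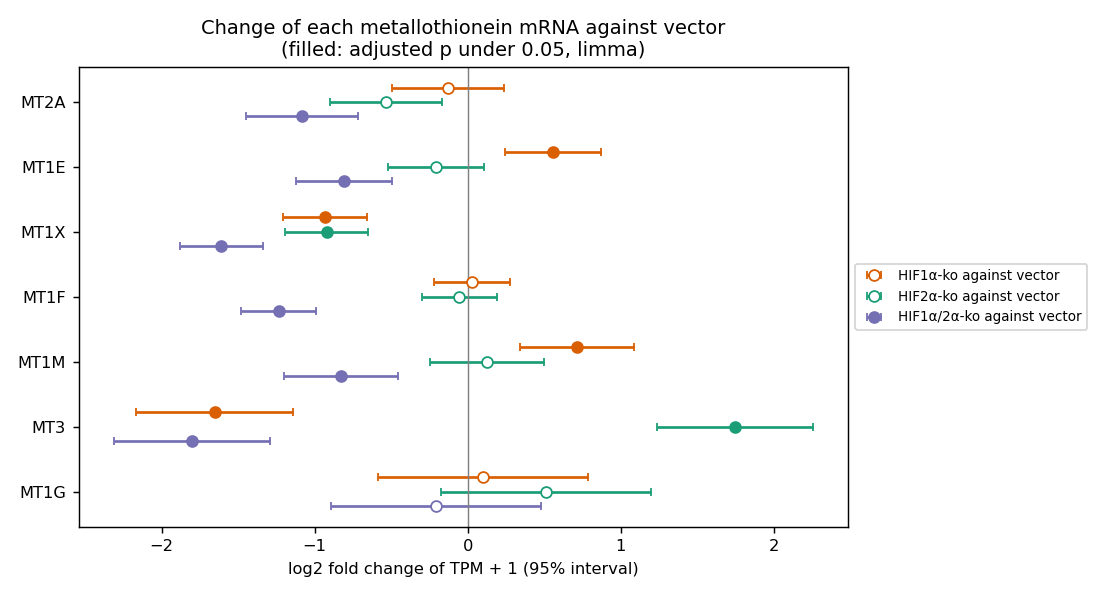
Log2 fold change of TPM + 1 against vector for the 7 tested metallothioneins in each knockout, with 95% intervals (limma, 3 libraries per group) and filled symbols for an adjusted p under 0.05. Filled symbols lie below 0 for 6 members in HIF1α/2α-ko and for MT1X in all 3 knockouts, and MT3 lies at 1.75 in HIF2α-ko against -1.65 in HIF1α-ko.

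The knockouts were then compared with each other. Against HIF1α-ko, 5 members were lower and none higher in HIF1α/2α-ko, where 28.3% of all genes were called, 17.7% higher and 10.6% lower. MT1M changed by -1.54, MT1E by -1.36, MT1F by -1.26, MT2A by -0.96 and MT1X by -0.68 on the log2 scale (limma, adjusted p between 2.75e-05 and 0.00199). MT3, already near 0 TPM in HIF1α-ko, had a change of -0.15 with an interval of -0.66 to 0.36. Against HIF2α-ko, 6 members were lower in HIF1α/2α-ko, where 46.4% of all genes were called, 33.5% higher and 12.9% lower. MT3 changed by -3.55, MT1F by -1.18, MT1M by -0.95, MT1X by -0.69, MT1E by -0.60 and MT2A by -0.55 (adjusted p between 9.78e-07 and 0.0177). The difference of MT2A did not pass without HIF2α-ko replicate 1 (-0.48, adjusted p = 0.069) or after quantile normalization (-0.39, adjusted p = 0.113). Over 22 alternatives its adjusted p was 0.00108 to 0.113.

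Between the single knockouts, MT1E was higher in HIF1α-ko than in HIF2α-ko by 0.76 (adjusted p = 0.00319) and MT1M by 0.59 (adjusted p = 0.027), and MT3 differed by -3.40 (adjusted p = 2.48e-06). In this comparison, 25.1% of all genes were called, 17.8% higher and 7.37% lower. The difference of MT1M did not pass when any of HIF1α-ko replicate 3 or HIF2α-ko replicates 1, 2 and 3 was left out (adjusted p between 0.0549 and 0.115), nor after either rescaling, with a range of 0.0185 to 0.172 over 21 alternatives. MT2A was higher by 0.40 in HIF1α-ko (interval 0.04 to 0.77, adjusted p = 0.0945), and this passed when only these 2 groups were fitted (0.0442), with replicates 2 and 3 of every group only (0.00592) and without vector replicate 1 (0.0227). Libraries of the 3 knockout groups with the same replicate number deviated together, and with the replicate as a block on these groups 5 members passed in place of 3, while the share of all genes called went to 50.5%. These included MT2A (adjusted p = 0.00878) and MT1G (-0.41, adjusted p = 0.0341). In HIF1α/2α-ko against HIF2α-ko, MT1G had a change of -0.72 that passed with this block (adjusted p = 0.00208) and missed the threshold without it (0.0812), but also passed without a block when only these 2 groups were fitted (0.0263) or vector replicate 1 was left out (0.0339). MT1X differed by -0.01 between the single knockouts, with an interval of -0.28 to 0.26.

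The orders of the levels can be read from these tests. For MT2A the means descended from vector over HIF1α-ko and HIF2α-ko to HIF1α/2α-ko. In the model of all 12 libraries without a block, no pair among the first 3 groups passed a test. HIF1α-ko against HIF2α-ko passed in the alternatives given above. HIF2α-ko against vector passed with replicates 2 and 3 only (limma, adjusted p = 0.00462) and with a replicate block over all 4 groups (0.0217). For MT1X the middle pair, and for MT1F the first 3 groups, did not pass a test among themselves. For MT1E and MT1M the middle pair was vector and HIF2α-ko, which did not pass. For MT3 the last pair, HIF1α-ko and HIF1α/2α-ko, did not pass.

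Whether both losses add up was tested by the interaction term, which is the log2 change in HIF1α/2α-ko less the changes in both single knockouts added together. The term was called below 0 for 4 of the 7 members and called above 0 for none. Of all genes 20.6% were called, 13.2% higher and 7.35% lower. Among the members not called, MT1G (-0.82) and MT2A (-0.43) had terms below 0 and MT1X (0.24) above it. For MT1F the single changes summed to -0.03 whereas the change in the dual knockout was -1.24, giving a term of -1.21 (SE 0.16, adjusted p = 0.000899). For MT1E the sum was 0.35 and the term -1.15 (SE 0.20, adjusted p = 0.00329). For MT1M the sum was 0.84 and the term -1.67 (SE 0.24, adjusted p = 0.00142). For MT3 the sum was 0.09 and the term -1.89 (SE 0.33, adjusted p = 0.00319). MT3 is a special case, since its level in HIF1α-ko was already near 0 and the rise in HIF2α-ko was not present in HIF1α/2α-ko. With a pseudocount of 0.1 the term of MT3 had an adjusted p of 0.0548, the highest over 19 alternatives from 0.00125.

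The terms of MT1X and MT2A did not pass in the model of all 12 libraries. For MT1X the sum was -1.86 against a change of -1.61 in HIF1α/2α-ko, and the term of 0.24 had an interval of -0.14 to 0.63 (adjusted p = 0.351). For MT2A the sum was -0.66 against -1.08, and the term of -0.43 had an interval of -0.94 to 0.09 (adjusted p = 0.225). Without vector replicate 1 the term of MT2A was -0.63 and passed (adjusted p = 0.0188), as it did with replicates 2 and 3 of every group only (-0.41, adjusted p = 0.0142), in a range of 0.0142 to 0.454 over 20 alternatives. Without vector replicate 1 that of MT1G passed as well (-1.17, adjusted p = 0.0372), in a range up to 0.423 over 19 alternatives. The terms of different members were not tested against each other.

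**Figure D3:**
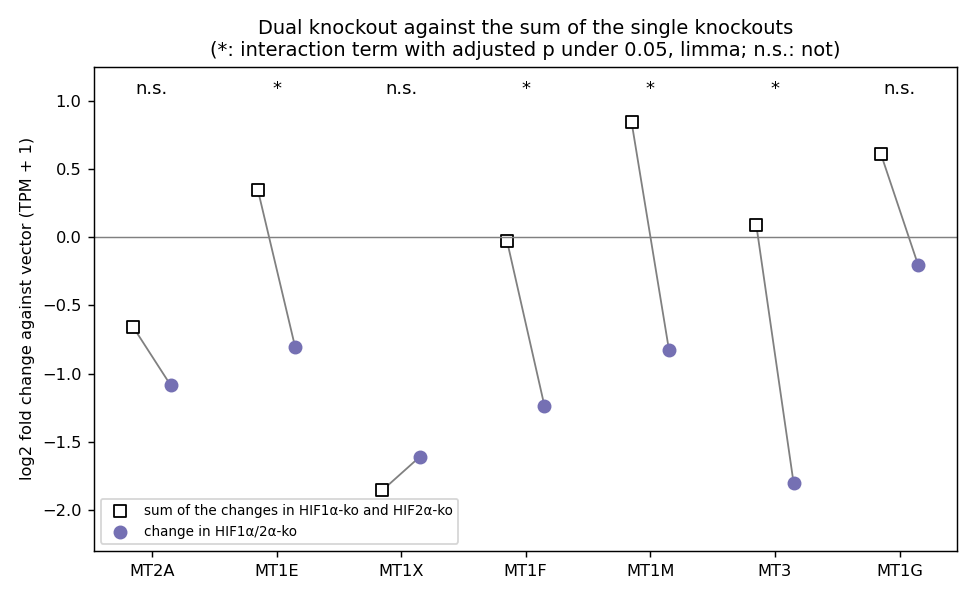
For each tested metallothionein, the sum of the log2 changes in HIF1α-ko and HIF2α-ko (open squares) beside the log2 change in HIF1α/2α-ko (filled circles), both against vector on the scale log2(TPM + 1). The circle lies at least 1.15 below the square for MT1E, MT1F, MT1M and MT3, and 0.24 above it for MT1X.

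The isoforms therefore did not keep 1 ratio to each other. Per library, the TPM of MT1E divided by that of MT1X was 1.37 ± 0.288 in vector, 3.80 ± 0.162 in HIF1α-ko cells, 2.22 ± 0.120 in HIF2α-ko cells and 2.37 ± 0.245 in HIF1α/2α-ko cells (mean ± SD, n = 3). The HIF1α-ko libraries, from 3.64 to 3.96, lay above all others, and the vector libraries, from 1.15 to 1.70, below all others. As a share of the members' sum, MT1E was 12.4 ± 0.27% in vector and 19.3 ± 2.22% in HIF1α-ko, while MT1X was 9.27 ± 1.65% and 5.07 ± 0.579%. MT3 was at most 0.202% of the sum in any library.

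Genes of metal handling were set beside the members, from lists given by function. MTF1, the metal-sensing activator, was 2.37 ± 0.516 TPM in vector, 2.79 ± 0.228 in HIF1α-ko cells, 1.60 ± 0.195 in HIF2α-ko cells and 3.70 ± 0.753 in HIF1α/2α-ko. It rose by 0.48 on the log2 scale in HIF1α/2α-ko (adjusted p = 0.0386), a call lost in 11 alternatives, including both rescalings and each of 7 single libraries left out (adjusted p 0.00502 to 0.152 over the alternatives). Of the SLC30 family, which moves zinc out of the cytosol, 2 of 5 tested members rose in HIF1α/2α-ko and none fell, where 31.8% of all genes were called higher. Without vector replicate 1 the count was 4 of 5, where 48.4% of all genes were called in either direction. SLC30A1, the zinc exporter of the plasma membrane and itself a known MTF1 target, was 0.769 ± 0.140 TPM in vector and 3.04 ± 0.152 in HIF1α/2α-ko, a log2 change of 1.19 (adjusted p = 3.91e-05). It was also higher in HIF1α-ko, at 2.17 ± 0.305 TPM (log2 change 0.84, adjusted p = 0.00185). SLC30A5, a zinc transporter of the secretory pathway, rose by 1.38 in HIF1α/2α-ko (adjusted p = 0.00294). SLC30A1 thus rose in HIF1α/2α-ko, where 6 of the 7 tested metallothioneins fell. In HIF1α-ko it rose while 2 metallothioneins were called higher and 2 lower. The part of MTF1 in these changes was not tested.

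Of the SLC39 family, which brings zinc into the cytosol, 4 of 12 tested members rose in HIF1α/2α-ko and none fell, a share near that of all genes called higher (31.8%). They were led by SLC39A3 (1.80, adjusted p = 2.10e-05), SLC39A13 (0.96, adjusted p = 0.000113) and SLC39A7 (0.86, adjusted p = 0.00273). After median ratio scaling 3 rose and 2 fell, where 46.5% of all genes were called in either direction. Among 10 tested copper genes 5 rose and 1 fell, where 31.8% of all genes were called higher and 14.8% lower. Without vector replicate 3 or HIF1α/2α-ko replicate 1 none fell, where 40.9% and 50.8% of all genes were called in either direction. The copper genes that rose included SLC31A1, the copper importer, at 1.78 (adjusted p = 7.64e-05). COX17, a copper chaperone for cytochrome oxidase, rose by 1.00 (adjusted p = 0.000192). SCO1, a partner of COX17 in that step, rose by 1.5 (adjusted p = 0.000626). After median ratio scaling 4 copper genes rose and 3 fell, where 46.5% of all genes were called in either direction. The median changes were 0.55 for SLC30, 0.01 for SLC39 and 0.47 for copper genes, against 0.21 over all genes.

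Genes known to be induced by metals and oxidants moved opposite to the metallothioneins in HIF1α/2α-ko. All 7 tested genes rose against vector, with a median change of 1.90, where 31.8% of all genes were called higher. After median ratio scaling 6 rose, where 46.5% of all genes were called in either direction. The smallest of the 7 rises was 0.42 (limma, adjusted p = 0.0393), a call lost in 11 alternatives. SRXN1, which repairs oxidised peroxiredoxins, went from 15.8 ± 2.80 TPM in vector to 195 ± 85.3 (log2 change 3.44, adjusted p = 1.61e-05). HMOX1, which degrades heme, went from 40.6 ± 16.8 to 146 ± 24.2 TPM (1.91, adjusted p = 0.000165), and GCLM, a subunit of the enzyme that starts glutathione synthesis, from 1.40 ± 0.325 to 7.37 ± 3.29 TPM (1.72, adjusted p = 0.000277). Among 8 tested glucocorticoid-responsive genes 3 rose and 2 fell, where 31.8% of all genes were called higher and 14.8% lower. After median ratio scaling 1 of these 8 rose and 2 fell, where 46.5% of all genes were called in either direction. NR3C1, the glucocorticoid receptor, changed by -1.27 (adjusted p = 0.000136) and ERRFI1 by -1.22 (adjusted p = 0.00568), whereas DUSP1 rose by 1.14 (adjusted p = 0.00697, and 0.052 after median ratio scaling). HIF1α/2α-ko replicate 1 had 933 TPM of DUSP1 against 384 and 379 in the other two, and without it the rise was 0.71 (adjusted p = 0.0091). The median of this list was 0.32. Counts of these lists in the single knockouts were between 0 and 4 and moved by more than 1.5-fold with single libraries for all of them, so no direction of a list is given there. Rises were still not confined to HIF1α/2α-ko. Of the 7 metal- and oxidant-inducible genes, 3 were called higher in HIF1α-ko, where 17.3% of all genes were. In HIF2α-ko 2 were called higher, where 5.07% of all genes were. None of the 7 was called lower there in the model of all 12 libraries.

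**Figure D4:**
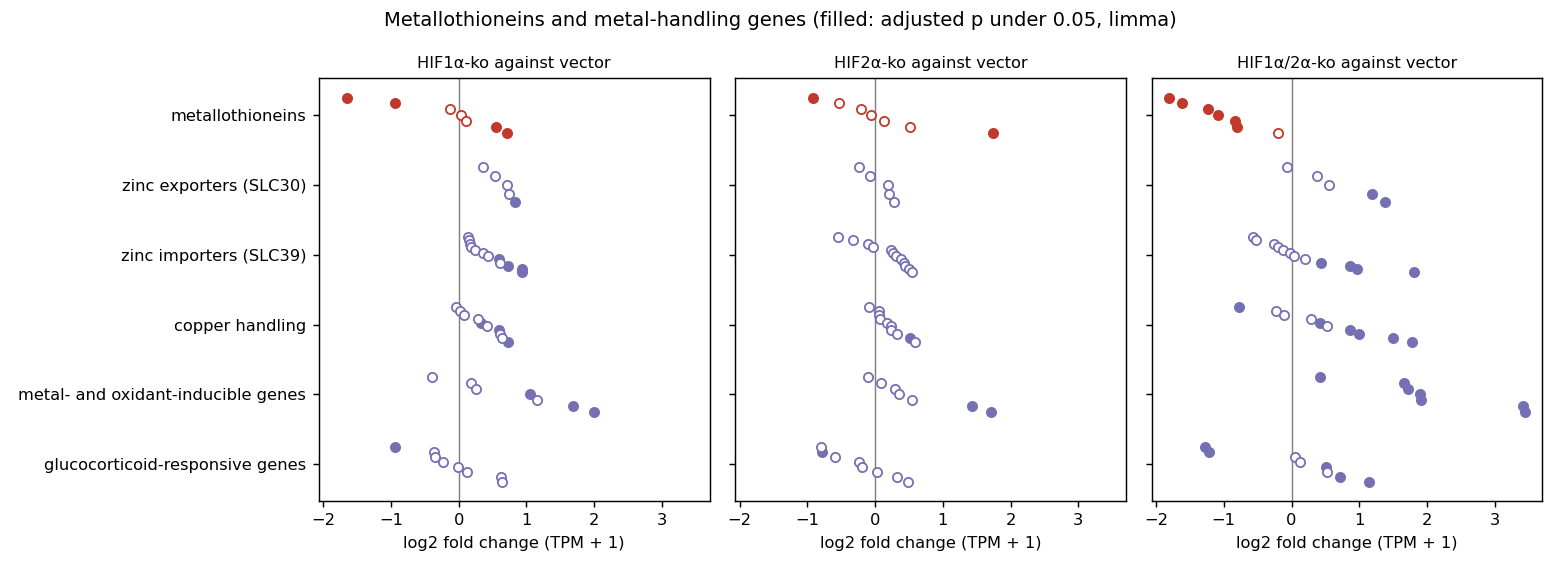
Log2 fold change of TPM + 1 against vector for each tested metallothionein (red) and each tested gene of 5 lists (purple), with filled symbols for an adjusted p under 0.05 (limma). In HIF1α/2α-ko 6 metallothioneins are filled below 0 while all 7 metal- and oxidant-inducible genes are filled above 0.

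Other genes with a profile like that of MT2A were sought over all tested genes. The highest Pearson's r of log2(TPM + 1) over the 12 libraries was reached by SYNDIG1 (0.975), RNASE1 (0.963), DENND2A (0.962), MAN2B2 (0.956) and SUSD1 (0.949). For the other members r with MT2A was 0.848 for MT1E, 0.812 for MT1X, 0.776 for MT1F, 0.71 for MT1M, 0.303 for MT1G and 0.134 for MT3. These values describe 12 libraries in 4 groups, which share group differences, and carry no test. SYNDIG1 was 7.58 ± 2.47 TPM in vector, 5.71 ± 1.61 in HIF1α-ko cells, 4.16 ± 0.440 in HIF2α-ko cells and 1.28 ± 0.0882 in HIF1α/2α-ko, the same order of means as MT2A. All 5 genes were lower in HIF1α/2α-ko than in vector, with log2 changes from -0.79 for MAN2B2 to -2.0 for RNASE1. They were picked by their r with MT2A over these same libraries. This fall and the order of means follow largely from that choice and are no separate result.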

How the data were processed

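Messenger RNA was measured in 12 libraries, 3 in each of 4 groups taken from the labels; the vector columns were matched by the lack of a knockout code in their names. The authors deposited TPM for 20263 genes. Their processing notes name FastQC 0.11.2, Trimmomatic 0.36, HISAT2 2.0, bedtools 2.26.0 and the build GRCh38, without roles. The counter and annotation are not given in the sources used here. Symbols were matched to 19761 genes. TPM keeps no depth, so counting error is unknown, and 3382 genes are listed at 0 throughout.

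From these values log2(TPM + 1) was computed, and every gene that reached 1 TPM in at least 3 libraries entered 1 model of all 4 groups in limma 3.58.1 (R 4.3.3), moderated with a trend of variance on mean level. P-values are two-sided and adjusted by Benjamini-Hochberg over the 11731 genes within each comparison, with a threshold of 0.05. The fit was tested on simulated data. Members and gene lists were chosen with earlier results of these data known. Named genes are the members, the targeted genes, MTF1, for each list the up to 3 genes of smallest p against vector in HIF1α/2α-ko, and the 5 genes most correlated with MT2A. CD68 and the other cell markers were named to describe the line. Alternatives were a pseudocount of 0.1, no filter, a mean TPM of at least 5, rescaling by median ratio or by quantiles, a model restricted to the 2 groups compared, no trend, a replicate block, replicates 2 and 3 only, a log2 change of at least 1, and each library left out.

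Across the 3 knockout groups, libraries that share a replicate number departed from the means of their groups together (r 0.196 to 0.508 across genes). The number was therefore used as a block in alternative fits only, on the evidence of the values. A replicate 1 that stands apart alike in each group can by itself give such r, since deviations are taken from the group mean. Libraries of unlike number were not compared, so these r do not show that libraries were paired. With vector r was -0.0265 to 0.163, and these were not taken as paired. Coding bases and shared windows came from GENCODE 29, promoters from RefSeq. Tables and figures used matplotlib 3.10.9 and pandas 2.3.3 in Python 3.11.15.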

Additional observations from a re-analysis of the deposited data

Results flagged for a closer look

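For 4 members the effect of one knockout differed with the presence of the other, by the interaction term of limma with Benjamini-Hochberg adjustment. The terms on the log2 scale were -1.15 for MT1E (SE 0.20, adjusted p = 0.00329), -1.21 for MT1F (SE 0.16, adjusted p = 0.000899), -1.67 for MT1M (SE 0.24, adjusted p = 0.00142) and -1.89 for MT3 (SE 0.33, adjusted p = 0.00319). The term of MT3 did not pass with a pseudocount of 0.1 (adjusted p = 0.0548). MT1M and MT3 are low and were not tested with a mean TPM of at least 5. Loss of HIF2α left MT1E and MT1F with log2 changes of -0.21 and -0.06 in cells with HIF1α, and with changes of -1.36 and -1.26 in HIF1α-ko cells. For MT3, already near 0 TPM in HIF1α-ko, the changes in these 2 comparisons were 1.75 and -0.15. Groups of 3 libraries were not tested for single outlying libraries.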

How the results depend on the processing

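Of 1022 values of 49 member results under the alternatives, 973 kept their direction and side of the threshold, 17 lost a call, 15 gained one and 17 changed sign, none of the last called in either fit. The 6 calls in HIF1α/2α-ko against vector held in every alternative that tested these genes by p alone. Counts of members called moved by over 1.5 times as follows. With a mean TPM of at least 5, which removes MT1G, MT1M and MT3, the count was 2 in place of 4 for HIF1α-ko, 1 in place of 2 for HIF2α-ko, 1 in place of 3 for HIF1α-ko against HIF2α-ko and 2 in place of 4 for the interaction. With a log2 change of at least 1 the count was 1 for HIF1α-ko, 1 for HIF2α-ko, 3 in place of 5 for HIF1α/2α-ko against HIF1α-ko, 2 in place of 6 against HIF2α-ko, and 1 for HIF1α-ko against HIF2α-ko. With a pseudocount of 0.1 it was 1 for HIF2α-ko. With the replicate block on the knockout groups it was 5 in place of 3 for HIF1α-ko against HIF2α-ko. Leaving out each library gave 2 to 4 calls for HIF1α-ko, 2 with vector replicate 3 or HIF1α-ko replicate 3 left out, 2 to 3 for HIF2α-ko, 6 for HIF1α/2α-ko, 5 against HIF1α-ko, 5 to 7 against HIF2α-ko, 2 to 4 between the single knockouts and 4 to 6 for the interaction.

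Signs changed only in results that passed neither in the model of all 12 libraries nor in the alternative. For HIF1α-ko, MT1F was -0.17 with median ratio scaling, -0.0094 with quantile normalization, -0.0303 with replicates 2 and 3 only, and -0.0573 to 0.0805 with libraries left out. Leaving out libraries also gave -0.17 to 0.46 for MT1G and -0.27 to 0.0812 for MT2A in HIF1α-ko, -0.38 to 0.15 for MT1G in HIF1α/2α-ko, and -0.051 to 0.0128 for MT1X between the single knockouts. With replicates 2 and 3 only, MT1E was 0.0175 in HIF2α-ko, MT1G 0.22 in HIF1α/2α-ko and MT1X 0.0079 between the single knockouts, where MT1F was -0.17 with median ratio scaling.

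Vector was not taken as paired with the knockouts. A replicate block over all 4 groups gave MT2A in HIF2α-ko an adjusted p of 0.0217 (limma, -0.53, 0.00462 to 0.179 over the alternatives). MT2A passed there also with replicates 2 and 3 only (adjusted p = 0.00462), and MT1G passed without vector replicate 1 (0.87, adjusted p = 0.05). The block changed no other call against vector. The 2-group fit could not give the interaction, and the block on the knockout groups gave only comparisons between knockouts. With no depth in the table, precision rests on 3 libraries per group.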
